A study of Mus musculus with 6 samples.

Results

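Cluster 6 of the DES uterine epithelium was a group of 260 cells that the authors' clustering had set apart, and it was the DES epithelial cluster with the highest level of Top2a and Mki67. Its cells were taken as those with the value 6 in the authors' DES epithelial clustering and a column of counts. These 260 cells were 5.64% of the 4608 clustered DES epithelial cells with counts, in a DES library of 16312 cells and a series of 48699 cells. All 260 carried the authors' epithelial label. They were compared with the other 4348 clustered DES epithelial cells and with cluster 4 of the control epithelium, of which 187 cells had counts. The study read that cluster as luminal progenitors and a second cycling control cluster, 14, as glandular progenitors.

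The study asked what neonatal exposure to diethylstilbestrol (DES), a synthetic estrogen, leaves behind in the adult mouse uterus. CD-1 mice were injected with corn oil (CO) or with DES at 1 mg/kg per day from day 1 to day 5 of life, and their uteri were taken at 12 months of age. The CO mice were in estrus and the DES mice in persistent estrus, by the study's methods. Single-cell RNA-seq was made from dissociated uterus as 1 library a condition, with 2 CO mice pooled in one and 4 DES mice in the other, and Visium spatial RNA-seq from 2 CO and 2 DES sections of 1 mouse each. Because each condition had 1 library of pooled mice, no difference between single-cell groups was tested. Their values are levels in summed counts, as CPM of unique molecular identifiers (UMIs), that is scaled to a common library size, with exact Poisson 95% intervals that cover counting error only. Cells expressing Krt14 and Trp63 had been removed before the DES clustering, so basal cells were left out by design.

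A dividing cell copies its DNA in S phase, with MCM helicase loaded at origins, polymerases at the fork and ribonucleotide reductase supplying nucleotides. In G2 and mitosis it makes cyclin B with Cdk1, mitotic kinases, condensin, kinetochore proteins and spindle motors, and the anaphase-promoting complex then removes many of them. Transcripts of the first group peak around S phase through E2F factors, while those of the second build up in G2 through the MuvB complex, B-Myb and FoxM1. These act on promoters at the cell cycle homology region (CHR), often with NF-Y at a second motif nearby. Top2a, the topoisomerase that untangles sister chromatids, and Mki67, which coats mitotic chromosomes, are standard markers of cycling cells. The uterine epithelium divides in response to estrogen.

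The promoters of 4 genes of G2 and mitosis and of 2 genes of replication are shown because the cluster differed most between these kinds of gene. Each runs from 250 bases before the annotated start to 25 bases after it, from RefSeq on build GRCm38.p6, written 5′ to 3′ on the gene's strand. Capitals mark CCAAT (the CCAAT box), TTTGAA (the CHR) and TTTNNCGC (an E2F motif) on either strand, and matches on opposite strands may overlap. The positions are Top2a chr11:99024165-99024439 (minus strand), Mki67 chr7:135716355-135716629 (minus), Ccnb2 chr9:70421530-70421804 (minus), Cenpa chr5:30666636-30666910 (plus), Mcm6 chr1:128359681-128359955 (minus) and Mcm5 chr8:75109259-75109533 (plus). The sequences follow.
Top2a: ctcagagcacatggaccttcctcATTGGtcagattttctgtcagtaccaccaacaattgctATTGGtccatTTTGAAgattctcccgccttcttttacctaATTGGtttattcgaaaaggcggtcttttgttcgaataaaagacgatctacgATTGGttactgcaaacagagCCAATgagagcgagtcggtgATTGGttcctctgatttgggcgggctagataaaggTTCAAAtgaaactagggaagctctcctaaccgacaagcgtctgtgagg
Mki67: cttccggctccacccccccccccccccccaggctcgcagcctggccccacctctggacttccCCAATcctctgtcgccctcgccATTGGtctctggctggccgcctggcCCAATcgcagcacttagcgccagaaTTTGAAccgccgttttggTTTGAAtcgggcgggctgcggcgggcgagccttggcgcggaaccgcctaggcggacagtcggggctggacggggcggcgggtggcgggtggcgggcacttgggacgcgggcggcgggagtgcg
Ccnb2: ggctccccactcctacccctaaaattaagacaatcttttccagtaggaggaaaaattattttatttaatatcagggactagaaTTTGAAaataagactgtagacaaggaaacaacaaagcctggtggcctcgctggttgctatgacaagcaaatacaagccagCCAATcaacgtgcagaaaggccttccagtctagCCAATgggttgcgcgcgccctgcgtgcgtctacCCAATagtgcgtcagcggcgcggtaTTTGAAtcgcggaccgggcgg
Cenpa: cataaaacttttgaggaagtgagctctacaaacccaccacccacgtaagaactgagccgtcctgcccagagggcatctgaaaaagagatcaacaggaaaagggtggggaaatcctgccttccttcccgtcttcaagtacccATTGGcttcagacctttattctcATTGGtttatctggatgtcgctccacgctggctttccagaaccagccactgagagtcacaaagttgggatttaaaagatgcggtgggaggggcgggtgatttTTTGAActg
Mcm6: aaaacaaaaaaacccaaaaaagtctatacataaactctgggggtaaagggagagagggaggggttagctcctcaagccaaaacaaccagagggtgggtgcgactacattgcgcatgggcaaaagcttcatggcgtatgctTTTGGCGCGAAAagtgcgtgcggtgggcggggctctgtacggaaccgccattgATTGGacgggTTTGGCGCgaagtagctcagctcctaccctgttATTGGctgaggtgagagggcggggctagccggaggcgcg
Mcm5: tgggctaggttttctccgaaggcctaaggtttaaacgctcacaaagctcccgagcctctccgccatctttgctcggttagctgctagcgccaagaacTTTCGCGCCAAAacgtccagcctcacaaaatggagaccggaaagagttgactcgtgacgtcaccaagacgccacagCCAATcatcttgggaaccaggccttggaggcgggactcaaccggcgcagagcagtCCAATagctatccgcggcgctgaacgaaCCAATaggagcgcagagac

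The Top2a window held 6 CCAAT boxes and 2 CHR letters, and those of Mki67 and Ccnb2 held 3 and 2. Cenpa had 2 CCAAT boxes and 1 CHR, while Mcm6 had 3 E2F matches, Mcm5 had 2, and neither held a CHR. Among 52 RefSeq windows of 300 bases for the G2/M phase genes (47 of 54 genes matched), 75.0% held a CCAAT box, 65.4% a CHR and 51.9% both. For the S phase genes (31 of 43 matched, 34 windows) the shares were 67.6%, 17.6% and 11.8%, and 44.1% held the E2F letters, against 9.62% of the G2/M windows. Over all 32851 windows of the same length the shares were 37.4% for CCAAT, 17.9% for CHR, 6.95% for both and 5.17% for E2F. These are matches of letters only and name no bound factor.

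The DES library held 288919190 UMIs and the CO library 353460067, over 24077 genes. Cells of cluster 6 were deep, with a median of 65030.5 UMIs (range 6993 to 139437), against 23091 in the other DES epithelial cells and 36456 in CO cluster 4, so 61.2% of them passed 50000 UMIs, against 22.0% and 31.0%. Their 16607754 UMIs set the counting floor: 3 UMIs in the cluster are 0.181 CPM. The median share of mitochondrial UMIs was 12.9% in cluster 6 and 11.5% in the other DES epithelial cells. The 2 libraries shared 180 cell barcodes, and 1 barcode of cluster 6 was also in the CO library, in no cell of CO cluster 4. Whether doublets that the authors' filter left add to the depth of cluster 6 was not tested.

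The 2 marker genes were high in cluster 6, as its label says. Top2a was at 133 CPM (127 to 139) in cluster 6, 19.9 in the other DES epithelial cells, 224 (213 to 235) in CO cluster 4 and 15.2 in the other CO epithelial cells. Mki67 was at 42.1 (39.1 to 45.4), 4.24, 78.3 (72.0 to 84.9) and 5.41 CPM in the same order. Both genes ranked first of the 16 DES clusters, and the next cluster, DES 9, had 59.7 CPM of Top2a and 18.1 of Mki67. DES cluster 4 followed with 54.9 CPM of Top2a (52.1 to 57.8) and 9.98 of Mki67 (8.81 to 11.2). In the control library the 28 cells of CO cluster 14 were higher still, at 370 and 116 CPM.

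Cells were also counted at equal depth, since deeper cells show a given gene more often. After each cell was thinned to 3000 UMIs, 78 of 260 cluster 6 cells had a Top2a UMI (30.0%, exact binomial interval 24.5 to 36.0), 11.2% a Mki67 UMI and 13 cells (5.00%, 2.69 to 8.40) both. The other DES epithelial cells had 2.98%, 0.930% and 0.256%, with 49 cells under 3000 UMIs left out. In DES mesothelial cells, a type whose level reads as background, the shares were 0.423%, 0.264% and 0 of 3782 cells, which allows up to 0.0793%. CO cluster 4 had 30.3%, 19.5% and 7.57% over 185 cells, with 2 left out. Unthinned, 62.3% of cluster 6 cells and 66.8% of CO cluster 4 cells had both, with median depths that differ as above, against 4.58% of the other DES epithelial cells and 1 of 3837 mesothelial cells. Of the 24 clustered DES cells with UMIs of both genes at 3000 UMIs, 13 lay in cluster 6 (54.2%, 32.8 to 74.4), 4 in DES cluster 4 and 3 in DES cluster 9.

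Cluster 6 was set apart by genes of G2 and mitosis much more than by genes of S phase. A gene was counted as higher or lower where its CPM differed by at least a factor of 2 and reached 20 CPM in the higher group. By that rule 70 of 5822 genes were higher in cluster 6 than in the other DES epithelial cells (1.20%) and 23 were lower (0.395%). The clusters were formed on these counts, so the differences are a description. The pooled level of the neighbours can rest on 1 cluster, so each gene was also set beside the median of the 15 other DES clusters, a choice made after the values were seen. Of the 70 higher genes 69 were at least 2-fold above that median and 67 ranked first of the 16 clusters. Of the 23 lower genes 7 were at least 2-fold below it and 7 lay above it. Of the 54 G2/M phase genes, a published list used to score cell cycle phase, 39 reached the level and 28 of those were higher and none lower. The median log2 ratio over all 54 was 2.49, and their summed level was 3719 CPM in cluster 6 and 1337 in the other DES epithelial cells. Of the 43 S phase genes 18 reached the level, 1 was higher and 1 lower, the median log2 ratio was 0.19 and the summed level was 1011 against 842 CPM. The median over all genes was -0.02.

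**Figure D1:**
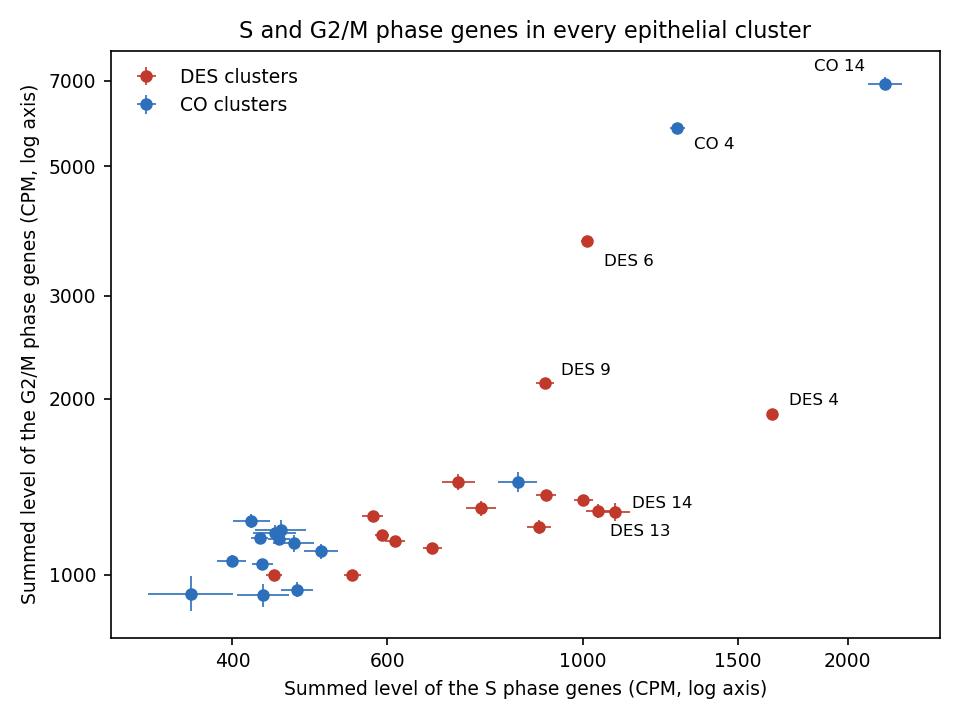
Each point is 1 epithelial cluster, with the summed level of the 43 S phase genes on the x axis and of the 54 G2/M phase genes on the y axis, in CPM on log axes. DES cluster 6 lies highest of the DES clusters at 3719 CPM of G2/M genes, DES cluster 4 lies farthest right of them at 1641 CPM of S genes, and CO clusters 4 and 14 lie above both at 5804 and 6916 CPM of G2/M genes.

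Among the 16 DES clusters, cluster 6 ranked 1 for the summed G2/M genes and 4 for the summed S genes. Its ratio of S to G2/M level, 0.27, was the lowest of the 16, as was the 0.22 of CO cluster 4 among the CO clusters. DES cluster 4, with 492 cells, was the opposite case, with 1641 CPM of S genes, 1886 of G2/M genes and a ratio of 0.87. Against DES cluster 4, 138 of 5890 genes were higher in cluster 6 (2.34%) and 68 lower (1.15%). Of the S phase genes 29 reached the level there, of which none was higher and 10 were lower in cluster 6, while 24 of the 39 G2/M genes that reached it were higher and none lower. The median log2 ratios of the lists were -0.64 and 1.48.

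Cyclins of mitosis were high and those of G1 were not. Ccnb1 and Ccnb2, the B cyclins that drive entry into mitosis with Cdk1, were at 42.3 (39.2 to 45.5) and 63.5 CPM (59.7 to 67.4) in cluster 6, against 3.28 and 4.85 in the other DES epithelial cells. Ccna2, the A cyclin of S phase and G2, was at 43.6 against 4.06 CPM. The E cyclins that start S phase lay under the level minimum, with Ccne1 at 3.43 against 2.04 and Ccne2 at 3.13 against 1.98 CPM. They ranked 3 and 2 of the 16 DES clusters, behind DES cluster 4 at 6.71 and 6.90 CPM, and the medians of the other clusters were 1.20 and 0.789. The D cyclins, which carry growth signals in G1, lay the other way. Ccnd1 was at 49.0 (45.6 to 52.4) against 81.5 CPM and was the lowest of the 16 DES clusters beside DES cluster 2, whose 49.5 CPM (46.0 to 53.2) had an overlapping interval, and Ccnd2 was at 15 (13.2 to 17.0) against 56.8 CPM, a ratio of 0.264 (0.232 to 0.300). Ccnd2 was the gene with the lowest ratio among those reaching 50 CPM in either group. Cluster 6 ranked 15 of the 16 DES clusters for it, with DES cluster 1 lower at 6.09 CPM and DES cluster 2 at 20.3, and neither of those clusters had high cycle markers, at 4.31 and 4.65 CPM of Top2a.

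Inhibitors of cyclin-dependent kinases were mixed. Cdkn2c, the p18 inhibitor of Cdk4 and Cdk6, was at 22.3 (20.1 to 24.7) against 7.14 CPM, and Cdkn2d, the p19 inhibitor, at 18.3 against 5.17. Cdkn1a, the p21 gene that p53 induces, was at 34.1 against 40.1 CPM, and Cdkn2a at 14.8 against 23.7. Of the 7 inhibitors 3 reached the level and only Cdkn2c was counted, as higher.

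Genes of mitosis were higher in each of 5 groups. Of 11 mitotic kinases 5 reached the level and all 5 were higher, with a median log2 ratio of 2.68 over the list. Cdk1, the kinase that starts mitosis, was at 85.0 (80.6 to 89.6) against 10.7 CPM, and Aurkb, the kinase of the chromosomal passenger complex, at 23.7 against 2.33. Plk1, which acts from centrosome to cytokinesis, was at 19.4 CPM against 1.74, just under the level minimum. Of 23 genes of the kinetochore and centromere 12 reached it and 11 were higher, led by the centromeric histone Cenpa at 96.3 (91.6 to 101) against 7.18 CPM, the highest ratio of all genes that reached 50 CPM (13.4, 12.4 to 14.5). Cenpf, a kinetochore protein of G2, was at 107 against 8.19 CPM.

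Spindle genes were higher in 10 of the 12 that reached the level, of 21 listed. Nusap1, a spindle microtubule bundler, was at 58.6 against 4.93 CPM, Prc1, which builds the midzone, at 47.3 against 4.86, and Hmmr, which binds spindle microtubules, at 28.2 against 1.95. Of 17 genes of chromosome structure 12 reached the level and 8 were higher. The condensin subunits Smc2 and Smc4 were at 169 against 65.1 and 76.3 against 24.1 CPM. Of 15 genes of anaphase and cytokinesis 11 reached the level and 10 were higher, among them Ube2c, the ubiquitin enzyme of the anaphase-promoting complex (247 against 24.4 CPM), its activator Cdc20 (59.0 against 5.18), the survivin gene Birc5 (100 against 9.54) and the securin gene Pttg1 (96.9 against 15.8). In these 5 lists none was counted as lower.

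Replication genes were at about the level of the other DES epithelial cells, with exceptions. Of 19 genes of origin licensing and firing 7 reached the level and 1 was higher, Dbf4, the partner of the Cdc7 kinase, at 25.3 (23.0 to 27.9) against 9.09 CPM. The MCM helicase genes were not among those counted: Mcm2 was at 14.7 against 22.3 CPM, Mcm5 at 17.0 (15.1 to 19.1) against 18.6 and Mcm6 at 39.3 (36.3 to 42.4) against 46.2. Mcm6 ranked 10 of the 16 DES clusters and Mcm5 ranked 8, and DES cluster 4 was highest for both, at 96.3 and 49.9 CPM. Of 23 genes of the replication fork 10 reached the level and 1, Pclaf, a partner of the sliding clamp, was higher at 216 (209 to 223) against 38.0 CPM. The clamp itself, Pcna, was at 21.1 (19.0 to 23.5) against 19.2 CPM, a ratio of 1.10 (0.982 to 1.23) whose interval holds 1.

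Of 16 genes of nucleotide synthesis 10 reached the level and 2 were higher. These were Tk1, thymidine kinase, at 39.6 (36.7 to 42.8) against 9.83 CPM, and Rrm2, the limiting subunit of ribonucleotide reductase, at 25.3 (22.9 to 27.8) against 5.66. Rrm1, the other subunit, was at 50.5 against 28.0, and Tyms, thymidylate synthase, at 71.0 against 43.3 CPM. Ung, which removes uracil from DNA, was the 1 S phase gene counted as lower, at 11.3 (9.70 to 13) against 24.1 CPM, and ranked 13 of 16 clusters. Of 12 genes that copy chromatin 7 reached the level and none was counted, with Uhrf1, the reader of newly copied methylated DNA, at 17.3 against 14.2 CPM.

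Transcription factors of the cycle were low in UMIs. Of 13 listed, 1 reached the level and none was counted. Foxm1, which drives G2 genes, was at 6.86 (5.66 to 8.25) against 1.06 CPM, and Mybl2, the B-Myb gene, at 3.07 against 1.62. E2f1, the S phase factor, was at 4.15 against 4.21 CPM and at 12.7 CPM in DES cluster 4. Brca1, of homologous repair, was at 9.45 against 3.12 CPM. Replication-dependent histones lack the poly(A) tail that this chemistry primes on, and 3 of 65 reached the level, of which Hist1h2ap was higher at 58.3 against 7.69 CPM.

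Over the 16 DES clusters the genes whose levels ran most like Top2a were Pbk, a mitotic kinase (Pearson r 0.97), Cdk1 (0.97), Pclaf (0.96), Tk1 (0.95), Racgap1 of the cleavage furrow (0.95) and Esco2 of sister cohesion (0.95). These were among 7132 genes, over clusters of 1 library that differ in depth, and are a description.

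**Figure D2:**
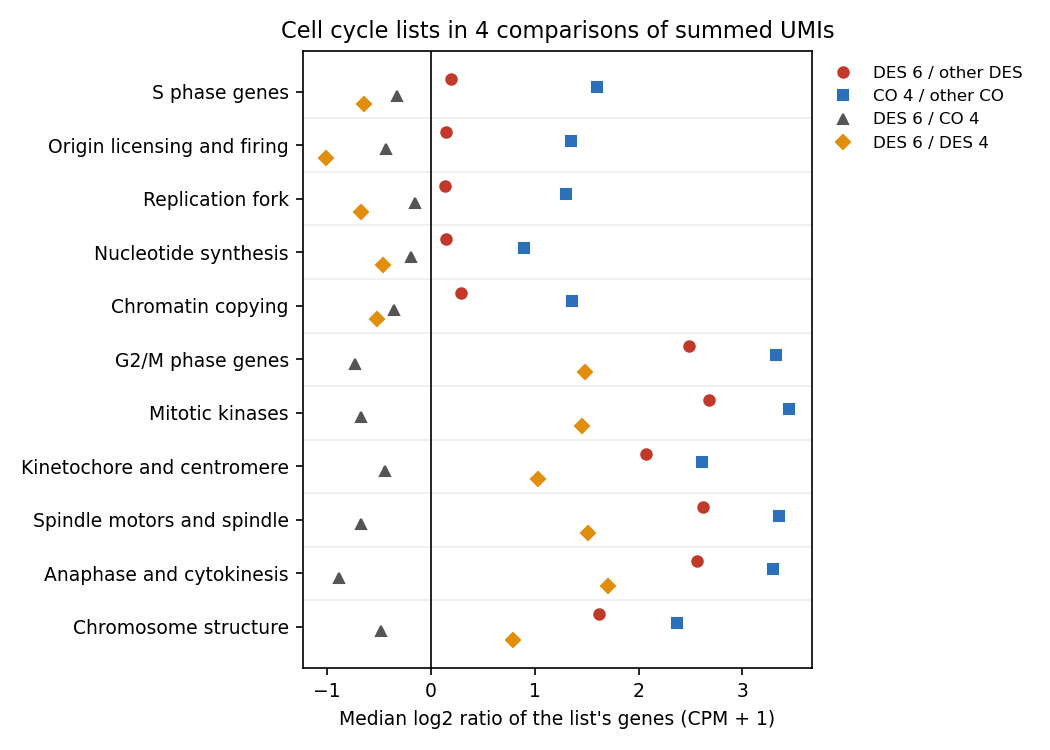
Rows are cell cycle lists and the x axis is the median log2 ratio of a list's genes (CPM plus 1), with 1 mark for each of 4 comparisons of summed UMIs. For cluster 6 against the other DES epithelial cells the G2/M list lies at 2.49 and the S list at 0.19, and for CO cluster 4 against the other CO epithelial cells they lie at 3.32 and 1.60.

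The same contrast was made in the control library, which shares no library with the DES one. In CO cluster 4 against the other 2396 clustered CO epithelial cells, 192 of 5916 genes were higher (3.25%) and 61 lower (1.03%). Of the G2/M genes 45 reached the level, 42 were higher and the median log2 ratio of the list was 3.32. Of the S phase genes 22 reached it and 17 were higher, with a median of 1.60. CO cluster 4 thus carried both lists above its neighbours, which include the cycling CO cluster 14. Cluster 6 carried the S list at a median of 0.19 above its own neighbours. Mcm5 was 5.89 times (5.02 to 6.89) the level of the other CO cells in CO cluster 4 and 0.917 times (0.808 to 1.04) that of the other DES cells in cluster 6. For Mcm6 the ratios were 2.45 (2.16 to 2.78) and 0.850 (0.783 to 0.921), and for Pcna 2.25 (1.86 to 2.69) and 1.10 (0.982 to 1.23).

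Both the cycling cells and their neighbours enter these ratios. The other DES epithelial cells had higher S phase levels than the other CO epithelial cells, with 4 of 14 genes that reached the level higher, none lower and a median log2 ratio of 0.83, in a comparison where 366 of 6187 genes were higher (5.92%) and 506 lower (8.18%). DES cluster 4 is among those neighbours. Pcna was at 19.2 CPM in them and 8.82 in the other CO cells, and Mcm6 at 46.2 and 17.2.

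The genes that marked cluster 6 were largely those that marked CO cluster 4. Both were picked as cycling clusters high in Top2a and Mki67, so shared cycle genes follow in part from that choice. Over all genes 3.25% were higher in CO cluster 4 than in the other CO cells and 1.03% lower. Of the 70 genes higher in cluster 6 than in the other DES cells, 60 were also higher in CO cluster 4 than in the other CO cells, which is 85.7% of the 70 and 31.2% of the 192, and none was lower. Of the 23 lower genes 2 were also lower in CO cluster 4, Atf3 and Ccnd2, or 8.70% of the 23 and 3.28% of the 61. By cluster, Ccnd2 in CO cluster 4 was near the median of the other CO clusters, at 20.1 against 20.7 CPM. Atf3 was at 72.1 against a median of 125 CPM, so neither was 2-fold below. The 10 genes higher in cluster 6 alone by this rule were named after their values were seen. They were Cdc25b, a phosphatase that activates Cdk1, Cdkn2c, the kinetochore gene Cenpk, the linker histone H1fx, the heat shock gene Hspa4l, the interferon-responsive Ifi27l2a, the tubulin Tuba1a, and the cilia genes Tmem107, Dynlrb2 and Meig1. Of these, 4 were past the fold in CO cluster 4 as well and missed only the level minimum: Cenpk at 15.7 CPM there against 2.10 in the other CO cells, Cdc25b at 14.6 against 3.15, H1fx at 9.36 against 2.47 and Cdkn2c at 14.2 against 6.81.

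Between the cycling clusters themselves, some mitotic genes were lower in cluster 6 than in CO cluster 4 and more were not counted. Of 6171 genes, 326 were higher in cluster 6 (5.28%) and 507 lower (8.22%). Of the 46 G2/M genes that reached the level none was higher and 12 were lower, with a median log2 ratio of -0.73, or -0.33 with the 184 cells of integrated cluster 7 described next in place of all 260. The list's share called lower, 12 of 46, stands beside the 8.22% of all genes. Ccna2 was at 43.6 (40.5 to 46.9) against 112 CPM (105 to 120), Tpx2, a spindle assembly factor, at 40.5 against 114, and Hmmr at 28.2 against 86.8. The condensin subunit Ncapg was at 15.8 against 61.4 CPM, a ratio of 0.257 (0.220 to 0.300). Aurkb did not follow, at 23.7 (21.4 to 26.2) against 23.3 (19.9 to 27.0), and Smc2 was the other way, at 169 against 127 CPM. Of 23 S phase genes that reached the level 2 were lower and none higher, with a median of -0.32. Rrm1 was at 50.5 against 109 CPM and Mcm5 at 17.0 against 34.2, while Mcm6 (39.3 against 42.1) and Pcna (21.1 against 19.8) had overlapping intervals. Mouse, library and treatment cannot be told apart in these comparisons.

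**Figure D3:**
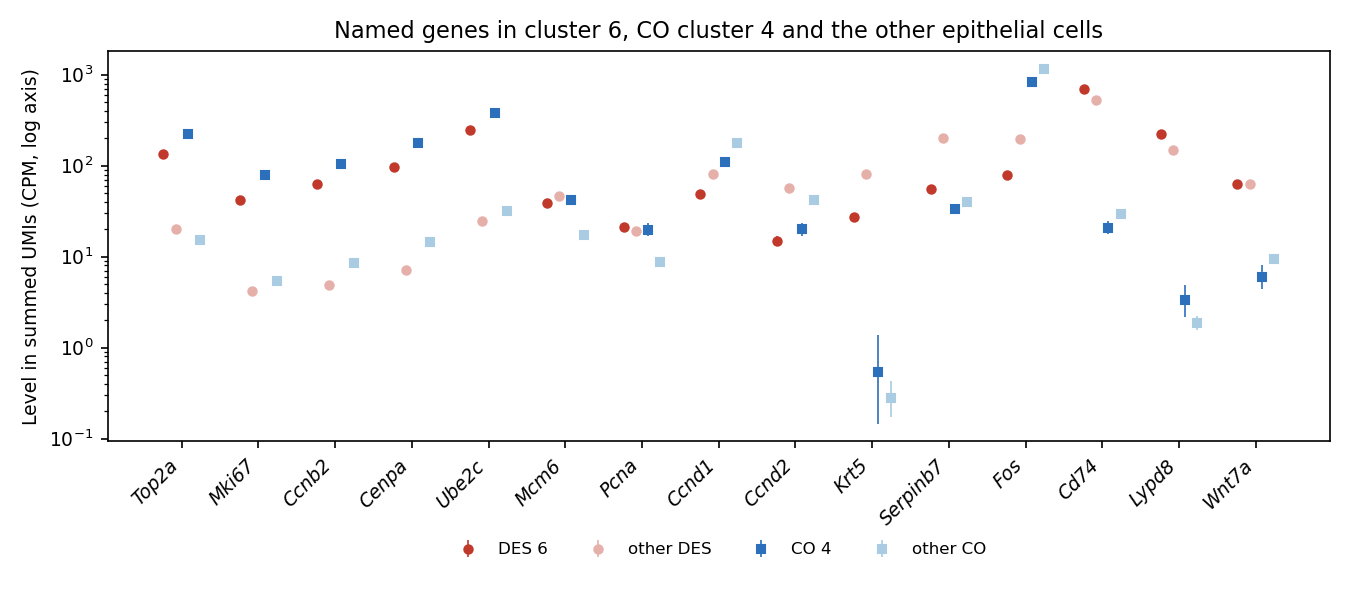
Levels in summed UMIs (CPM, log axis) of named genes in cluster 6, the other DES epithelial cells, CO cluster 4 and the other CO epithelial cells, with exact Poisson 95% intervals as bars. Cycling genes such as Top2a (133 CPM in cluster 6 and 224 in CO cluster 4) stand above both sets of neighbours, while Ccnd2 lies below them.

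Cluster 6 was not uniform. The authors also clustered the epithelium of both libraries together, and 184 of the 260 cells (70.8%, 64.8 to 76.2) fell in cluster 7 of that integrated clustering, whose 419 cells were 407 DES and 12 CO cells. It also held 160 cells of DES cluster 4, 16 of DES cluster 9 and 11 of CO cluster 4. The other 76 cluster 6 cells lay mostly in integrated clusters 4 (43 cells) and 5 (19 cells). The integrated clustering used these counts too, so what follows is a description. Median depth was alike, 64680 and 65072.5 UMIs, and the median mitochondrial share was 11.9% inside and 15.7% outside.

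Inside integrated cluster 7, cluster 6 cells had a median of 44.2 G2/M UMIs per 10000, and those in integrated clusters 4 and 5 had 8.74 and 9.82. Top2a was at 182 CPM inside and 12.7 outside, below the 19.9 of the other DES epithelial cells. Mki67 was at 57.7 and 3.96 CPM, Cdk1 at 117 and 5.84, and Ccnb1 at 59.0 and 1.04. In the cells outside, neither marker was above its pooled level in the other DES epithelial cells. Beside the median of the other DES clusters, Top2a lay below its 13.9 CPM and Mki67 above its 2.36. Between the cells inside and outside, 219 of 5800 genes were higher inside (3.78%) and 18 lower (0.310%). Of the 43 G2/M genes that reached the level 39 were higher inside, with a median log2 ratio of 3.17, and of 24 S phase genes 18 were, with a median of 1.46. Mcm5 was at 22.1 inside and 4.59 CPM outside, and Uhrf1 at 23.2 and 2.92.

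The cells of cluster 6 and of DES cluster 4 that shared integrated cluster 7 were still unlike. Of 6055 genes 141 were higher in the cluster 6 cells (2.33%) and 83 lower (1.37%). Of the S phase genes 35 reached the level, none was higher and 15 were lower in cluster 6, with a median log2 ratio of -0.85 and 1232 against 2286 CPM in all. Of the G2/M genes 43 reached it, 18 were higher and none lower, with a median of 0.81 and 4793 against 3035 CPM. Of 13 genes of origin licensing and firing that reached the level 9 were lower in the cluster 6 cells, and of 13 genes of anaphase and cytokinesis 7 were higher.

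Without the 76 cells the S list of cluster 6 lay at a median of 0.46 above the other DES cells and the G2/M list at 2.91. Against CO cluster 4 the medians were then -0.01 and -0.33, in place of -0.32 and -0.73, with 354 of 6259 genes higher (5.66%) and 446 lower (7.13%). This choice of cells was made after the values were seen. At thinned depth, Top2a UMIs were found in 41.8% of the cells inside and in 1 of the 76 outside (1.32%, 0.0333 to 7.11), and unthinned in 92.9% and 32.9%. CO cluster 4 was also divided by the integrated clustering, with 136 of 187 cells in integrated cluster 15 at a median of 57.3 G2/M UMIs per 10000 and 34 cells in integrated cluster 0 at 22.0, so its lower set lay above the 8.74 and 9.82 of the cluster 6 cells in integrated clusters 4 and 5.

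Among genes outside the cycle, Lypd8 was higher in the 76 cells, in a direction where 0.310% of all genes were counted. Lypd8, a secreted protein of mucosal epithelium that was at 729 CPM in DES cluster 1, was at 462 CPM outside and 127 inside. Sox9, a progenitor factor of glands, was at 112 and 59.9, and Prap1, a secreted uterine protein, at 3355 and 1682 CPM, both just short of the fold of 2. With the genes of 15 cycle lists left out, the DES cluster whose level profile over 6991 genes was nearest to that of all of cluster 6 depended on the measure. By r of centred log2 levels DES cluster 1 was first (0.48) and DES cluster 2 next (0.33). Without centring DES cluster 2 was first (0.979) and DES cluster 1 next (0.977), and by the median absolute log2 difference DES cluster 0 was nearest (0.164) and DES cluster 1 next (0.166). These r values were taken over genes of 1 library, and genes are not independent replicates.

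**Figure D4:**
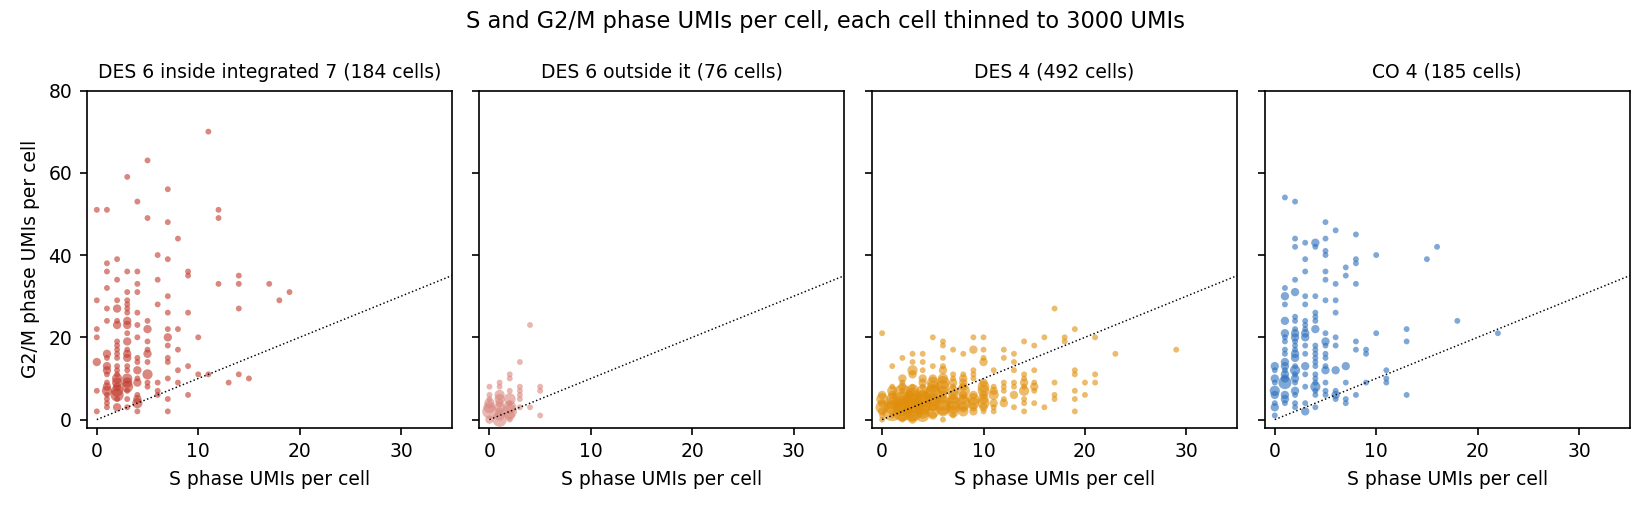
S phase UMIs (x axis) and G2/M phase UMIs (y axis) per cell after thinning each cell to 3000 UMIs, with 1 panel for each cell group. Cluster 6 cells spread upward along the G2/M axis, to 70 UMIs, with 51 of 260 at or under 3, while cells of DES cluster 4 spread along both axes.

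Cell by cell the cluster had a wide range of G2/M UMIs. At 3000 UMIs a cell, the median cluster 6 cell had 2 S phase and 9.5 G2/M UMIs, with quartiles of 5 and 20.2 for G2/M and a maximum of 70. The other DES epithelial cells had medians of 2 and 3, DES cluster 4 of 5 and 5, and CO cluster 4 of 3 and 16. In 19 cluster 6 cells (7.31%, 4.46 to 11.2) S UMIs outnumbered G2/M UMIs, against 212 of 492 in DES cluster 4 (43.1%) and 11 of 185 in CO cluster 4 (5.95%). At or under the median of the other DES cells, 3 G2/M UMIs, lay 51 cluster 6 cells (19.6%), 44 of them outside integrated cluster 7. Above their 90th percentile, 7 UMIs, lay 157 (60.4%). In CO cluster 4, 7 of 185 cells lay at or under the median of the other CO cells. Deeper cells had a lower G2/M share in cluster 6 (Spearman rho between UMIs and G2/M UMIs per 10000 -0.34 over 260 cells, -0.61 over the 184 inside integrated cluster 7 and -0.0060 over the 76 outside it), which was -0.07 in CO cluster 4. The cells of each group share 1 library.

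A few cluster 6 cells carried genes of motile cilia beside cycle genes. Multiciliated cells build many centrioles each, with Foxj1 as the factor for motile cilia and Deup1 as a scaffold of centriole growth. Genes of motile cilia were listed after the values were seen, so this is a description of what was found. At least 8 of 21 such genes were held by 7 of 260 cluster 6 cells (2.69%, 1.09 to 5.47), which had between 11 and 20 of them, while the other 253 cells had at most 5. In the other DES clusters 3 of 4348 cells did so (0.0690%, 0.0142 to 0.202), 1 each in DES clusters 7, 9 and 10, in DES cluster 4 none of 492, which allows up to 0.610%, and in the CO clusters none of 2583, which allows up to 0.116%. Finding a gene depends on depth, and the 7 cells had 35678 to 130281 UMIs.

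These 7 cells held 338 of the 340 Dynlrb2 UMIs of cluster 6, a dynein light chain of cilia, and 331 of 334 Meig1 UMIs. They held 62 of 64 for Foxj1, and all 210 for Fam183b, all 100 for Tekt1, a protein of the axoneme, and all 94 for Deup1. Other genes of the list were less confined, with 35 of 248 UMIs for Dnah12, 104 of 313 for Tppp3 and 133 of 255 for Mlf1. The 7 cells were picked by holding such genes, so part of this follows from the choice. Cell by cell, Foxj1 had 7, 6, 2, 25, 12, 5 and 5 UMIs. Top2a had 2, 18, 6, 13, 12, 6 and 7 UMIs in the same order, and Cdk1 had 0, 7, 8, 37, 0, 30 and 22. Mki67 was found in 4 of the 7. Their G2/M UMIs per 10000 ran from 13.1 to 123, with the lowest in the cell of 130281 UMIs that had 2 for Top2a and none for Cdk1, and epithelial Krt8 from 42 to 93 UMIs. Of the 7 cells, 5 lay in integrated cluster 7. Dynlrb2 and Meig1, which are counted above as higher in cluster 6, thus rest on these cells, and Tuba1a, Tmem107 and Hspa4l had 58.6%, 56.0% and 43.6% of their UMIs in their 7 highest cells. Without the 7 cells, 61 of the 70 higher genes were still counted. The 5 genes just named fell under both the fold and the level minimum, at 0.124 CPM for Dynlrb2, 0.187 for Meig1, 13.4 for Tuba1a, 13.2 for Tmem107 and 12.4 for Hspa4l. The tubulin Tubb4b (381 against 205 CPM) and the histone H2afz (1392 against 698) fell just under the fold, and the kinases Aurka and Melk just under the level minimum, at 19.7 and 19.9 CPM. Whether the 7 are doublets was not tested.

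Genes lower in cluster 6 than in its pooled neighbours were few, and for several of them the pooled level came mainly from 1 cluster. Serpinb7, a serpin of keratinocytes, was at 54.8 (51.3 to 58.5) against 204 CPM and ranked 13 of the 16 DES clusters, with 405 CPM in DES cluster 4. Krt5, a basal keratin, was at 27.5 against 81.4 CPM in a clustering that had already left basal cells out, and 0.535 CPM in CO cluster 4. DES cluster 5, at 645 CPM, held 47.7% of the neighbours' Krt5 UMIs, and cluster 6 ranked 8 of 16, above the other clusters' median of 19.9 CPM. Olfm4, a secreted glycoprotein that the study followed as a gene of DES-induced cancer, was at 26.1 (23.7 to 28.7) against 62.3 CPM. DES cluster 5, at 685 CPM, held 66.2% of those UMIs, and cluster 6 ranked 6 of 16, above the other clusters' median of 9.87 CPM. Of 16 immediate early genes, which report recent signals or handling, 14 reached the level and 4, Fos, Fosb, Egr1 and Atf3, were lower than the pooled neighbours. Fos was at 79.2 (75.0 to 83.6) against 195 CPM and Atf3 at 5.42 against 28.5. DES cluster 9, at 2519 CPM of Fos, held 67.8% of the neighbours' Fos UMIs and 76.0% of their Atf3 UMIs. Cluster 6 ranked 6 of 16 for Fos, above the other clusters' median of 54.6 CPM, and 12 for Atf3, where that median was 6.51. Against the median of the other clusters, the median log2 ratio of the list was -0.01 in place of -0.72. The nuclear RNA Malat1 was at 3493 against 7438 CPM and was the lowest of the 16 DES clusters. CO cluster 4 was likewise the lowest of the 15 CO clusters for it, at 6210 CPM against a median of 10039 in the others.

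Red cell and myeloid transcripts were not high in cluster 6. The 4 hemoglobin genes summed to 315 CPM, against 582 in the other DES epithelial cells, and the 6 myeloid markers to 60.4 against 68.2. The 5 endothelial markers summed to 1.20 against 1.79 CPM, the 7 lymphocyte markers to 4.52 against 5.06 and the 8 stromal markers to 120 against 118, with Dpt at 0. The 7 mesothelial markers summed to 31.3 against 32.8 CPM and the 4 basal markers to 46.9 against 100. Epithelial markers, 8 in all, summed to 3853 against 4341 CPM. In CO cluster 4 the sums were 9.90 for endothelium, 274 for stroma, 47.4 for myeloid cells, 1231 for red cells and 6034 for epithelium, so stromal, endothelial and red cell transcripts were higher there than in cluster 6. Their part in the differences from CO cluster 4 was not tested.

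Beyond the cycle, the genes with the largest ratios between cluster 6 and CO cluster 4 were no cycle genes, and their levels in the neighbours, from the same 2 libraries, are given beside those described. Crh, the corticotropin-releasing hormone gene, was at 86.9 (82.5 to 91.6) CPM in cluster 6, 149 in the other DES cells, 0 UMIs in CO cluster 4 and 0.0421 CPM in the other CO cells. Against a floor of 3 UMIs in CO cluster 4 it was at least 217-fold higher. Among the highest ratios were also 3 genes of class II antigen presentation, named for their place at the high end and not from a list. Cd74, the invariant chain, was at 699 CPM against 20.9, with 523 and 29.6 in the neighbours. H2-Aa was at 109 against 2.01 CPM, with 66.7 and 3.63 in the neighbours, and H2-Eb1 at 56.1 against 1.34, with 41.5 and 2.48. Cluster 6 ranked 5 of the 16 DES clusters for both, which ran for H2-Aa from 3.68 CPM in DES cluster 13 and 7.28 in DES cluster 4 to 230 in DES cluster 7. Lypd8 was at 224 (217 to 231) against 3.34 CPM, with 148 and 1.88 in the neighbours, and ranked 2 of 16 behind DES cluster 1.

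Other genes at the high end of that comparison were high in the other DES cells too. The uroplakin Upk1a was at 70.6 CPM in cluster 6, 69.0 in the other DES cells, 0.936 in CO cluster 4 and 1.12 in the other CO cells. The homeobox gene Meis2 was at 122, 142, 4.41 and 3.87 CPM in the same order, the retinal reductase Dhrs3 at 138, 177, 6.56 and 12.8, and Lypd2 at 103, 200 and then 5.08 and 5.45. Vpreb3 was at 52.0, 39.0, 0.401 and 0.435 CPM, where 3 UMIs in CO cluster 4 gave a ratio of 130 (44.2 to 630). At the low end, Tnip3 and Tnfaip3, which restrain NF-kappaB signaling, were low in both DES groups. Tnfaip3 was at 2.59, 3.67, 73.0 and 116 CPM, and Tnip3 at 0.120, 0.712, 63.8 and 73.3, where 2 UMIs in cluster 6 gave a ratio of 0.00189 (0.000228 to 0.00685). The chemokine Cxcl1 was at 0.963, 3.76, 57.7 and 85.0 CPM. The rest of the 10 lowest were the transporter Slc16a14, the keratins Krt12 and Krt87, Lrg1, Spp1, Fam132a and Fosb, and without Tnip3 the ratios ran from 0.00849 to 0.0462.

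Genes that the study followed as marks of DES were within a factor of 2 of the other DES cells, except Olfm4. The list of 7 DES cancer genes was chosen by the study on these mice and is no independent evidence. None was higher in cluster 6 than in the other DES cells and 1, Olfm4, was lower than their pooled level though not than the median of the other clusters, as given above. Rad51b, of homologous repair, was at 96.5 CPM in cluster 6, 112 in the other DES cells, 17.1 in CO cluster 4 and 18.2 in the other CO cells, and Olfm4 at 26.1, 62.3, 0.936 and 0.967 CPM in the same order.

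Wnt genes, which pattern the uterine epithelium and its glands, were counted against both groups. Of 20 Wnt ligands and receptors 8 reached the level against the other DES cells and none was counted, where 1.20% of all genes were higher and 0.395% lower. Against CO cluster 4, 3 of 8, Wnt4, Wnt7a and Fzd10, were higher, beside 5.28% of all genes. Of 17 Wnt targets and feedback genes 5 reached the level against the other DES cells and 1, Ccnd2, was lower, with a median log2 ratio of -0.36 over the list. Myc was at 20 (17.9 to 22.3) against 35.7 CPM and Axin2, a feedback inhibitor, at 6.92 against 9.71. Against CO cluster 4, 4 reached the level, Tcf7, a factor of Wnt signaling, was higher at 29.1 against 8.16 CPM and Ccnd1 lower at 49.0 against 109. Wnt7a, the epithelial ligand, was at 63.5 (59.7 to 67.5) CPM in cluster 6, 62.5 in the other DES cells, 6.02 in CO cluster 4 and 9.31 in the other CO cells. Fzd10, a receptor, was at 39.4, 51.0, 6.29 and 9.07 CPM. Markers of uterine stem cells were few: of 8, 4 reached the level and none was counted against the other DES cells. Lgr5 was at 5.24 (4.20 to 6.46) against 3.17 CPM and Aldh1a1 at 2.29 against 2.68, both under the level minimum, and Sox9 was at 75.0 against 50.6.

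The receptors for estrogen and progesterone were within a factor of 2 of their levels in the other DES cells and in CO cluster 4. Esr1, the estrogen receptor, was at 187 CPM in cluster 6, 221 in the other DES cells and 210 in CO cluster 4, and Pgr, the progesterone receptor, at 82.5, 98.2 and 64.9. Of the 12 genes on that list none of the 7 that reached the level was counted against the other DES cells, a share near that of all genes. Against CO cluster 4, 2 of 8 were lower, beside 8.22% of all genes, the estrogen target Greb1 at 15.8 against 66.5 CPM and Lcn2, a secreted lipocalin, at 3137 against 6723. None of the 7 p53 targets that reached the level, of 12, was counted against the other DES cells.

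Gland markers were counted in each library, and no test of a difference between the libraries was made. In cluster 6 none of the 6 that reached the level was counted against the other DES cells, where 0.395% of all genes were lower: S100g, a calcium-binding protein of uterine epithelium, was at 663 against 560 CPM and Napsa, an aspartic protease, at 100 against 121. In CO cluster 4, 9 of 11 were lower than in the pooled other CO cells, where 1.03% of all genes were, with a median log2 ratio of -3.50. S100g was at 56.5 against 953 CPM there and Napsa at 19.1 against 273. The pooled level of S100g came from few clusters, with 10263 CPM in CO cluster 8, 7162 in CO cluster 3 and 7109 in CO cluster 14, and CO cluster 4 was less than 2-fold below the median of the other CO clusters, 95.2. The pool holds the clusters that the study read as gland, CO clusters 3, 8, 13 and 14. Set beside the median of the other CO clusters, only 5 of all genes were lower in CO cluster 4. The 9 gland markers therefore do not all hold by that measure. Luminal markers, 8 in all and taken by the study from these mice, showed none of 5 counted in cluster 6 against the other DES cells. Against CO cluster 4, 5 of 8 were lower (median -1.40), beside 8.22% of all genes, and between the neighbours also 5 of 8 (-1.63), beside 8.18%. The study chose these markers as widely found in its CO luminal clusters, which include CO cluster 4. Lower levels in DES cells are thus partly set by that choice, and these shares cannot be weighed against those of all genes.

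Most immediate early and glycolytic genes were lower in cluster 6 than in CO cluster 4. Between their neighbours most of the immediate early genes and 6 of 12 glycolytic genes were lower too. Of 16 immediate early genes 13 were lower (median log2 ratio -3.27), beside 8.22% of all genes, with Fos at 79.2 against 842 CPM and Egr1 at 16.1 against 329. Between the other DES and other CO cells 13 were also lower, with a median of -2.55, beside 8.18% of all genes. Of the 12 genes of glycolysis that reached the level, of 15, 11 were lower, with a median of -1.35, and between the neighbours 6 of 12 were lower with a median of -0.93. Ldha, which makes lactate, was at 537 CPM in cluster 6, 531 in the other DES cells, 1192 in CO cluster 4 and 956 in the other CO cells. Eno1 was at 87.4, 131, 359 and 299 CPM. Of 81 ribosomal protein genes none was counted in either contrast of cluster 6.

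The spatial sections gave the only replicated measure, which the clustering did not use, but they hold all cells of the uterus wall. By the study's methods, mice were selected after a pathologist checked sections for epithelium and, in DES mice, for adenocarcinoma. Blocks were then cored to the areas of interest. The study reports a substantial tissue fold in a CO section and limited cluster identification in a DES section. It left both out of most of its analyses, and both are used here. The part of this choice of tissue in the differences between DES and CO was not tested. In such bulk samples fewer cells of a type and less RNA per cell cannot be told apart. Sections held 1357 to 1834 spots and 9117099 to 12506177 UMIs. The spots in the top 25% of their section by epithelial marker UMIs were summed and tested with edgeR's quasi-likelihood test over all genes, with Benjamini-Hochberg adjustment. Of 12085 genes 513 were higher in DES (4.24%) and 325 lower (2.69%) at an adjusted p under 0.05. None of the 39 G2/M genes tested was called, with 1 higher and 8 lower at an unadjusted p under 0.05 and a median log2 fold change of -0.74. Their summed level was 1308 and 806 CPM in CO and 1395 and 1324 in DES. Among 31 S phase genes none was called, with 4 higher and none lower unadjusted and a median of 0.14. The S phase genes summed to 609 and 485 CPM in CO and 804 and 679 in DES. For 17 of the 31 both DES sections lay above both CO sections in CPM, and for 1 below. No share of all genes apart in this way, or at the unadjusted threshold, was counted, so these counts cannot be weighed. Of the other cycle lists 2 genes were called, both higher in DES. Cit, the citron kinase of cytokinesis, was at 1.98 and 0.903 CPM in CO and at 10.9 and 14.1 in DES (log2 fold change 2.76 ± 0.51 SE, edgeR adjusted p 0.0425), and the tubulin Tuba1b, which has near-identical paralogs, at 123 and 74.9 against 414 and 330 (1.59 ± 0.31, adjusted p 0.0464). Without DES section 1, 68 genes were higher and 12 lower, without DES section 2, 11 and none, without CO section 1, 1687 and 1635, and without CO section 2, 1675 and 1576.

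Markers of other cell types were also read in the same epithelium-rich spots, where 4.24% of all genes were called higher and 2.69% lower. The 4 basal markers summed to 5.36 and 261 CPM in CO and 10195 and 6948 in DES, with none of the 4 called and a median log2 fold change of 5.09. Of 6 myeloid markers 3 were called higher, at sums of 186 and 316 against 1860 and 846 CPM, and of 6 muscle markers 2 were, at 398 and 349 against 780 and 985. Of 8 stromal markers 2 were called lower, at 2106 and 1917 against 1917 and 1233 CPM. Of 3 lymphocyte markers tested 1 was called higher (median log2 fold change 2.22), of 4 mesothelial markers 1 was (1.59), and of 4 pericyte markers 1 was called higher and 1 lower. None of 4 endothelial markers was called, with a median of -1.25. Of the epithelial markers themselves 1 of 8 was called, higher, at 6341 and 4599 against 5940 and 6316 CPM. Gland markers were unlike between the 2 CO sections, at sums of 5261 and 53749 CPM, against 3433 and 4583 in DES. Of the 10 gland markers tested 2 were called higher and 1 lower. Of 80 ribosomal protein genes 15 were called lower and none higher, with 51 lower at an unadjusted p under 0.05 and a median of -0.72. No share of all genes at that unadjusted threshold was counted to weigh the 51. Of 11 mitochondrial transcripts 1 was called higher, with a median of 0.62. The part of these shifts in the cycle gene values was not tested.

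Top2a was at 17.5 and 4.74 CPM in the epithelium-rich spots of the CO sections and at 13.6 and 5.69 in those of the DES sections, so the groups overlapped (log2 fold change -0.54 ± 0.73 SE, edgeR adjusted p 0.691). Mki67 was at 23.0 and 8.12 in CO and at 8.50 and 5.02 in DES (-1.53 ± 0.61, edgeR adjusted p 0.193), again overlapping. Cenpa was at 27.0 and 11.5 in CO and 5.78 and 5.35 in DES, which did not overlap (-2.11 ± 0.51, edgeR adjusted p 0.0745). Pcna was at 12.5 and 13.3 in CO and at 30.3 and 25.8 in DES, also apart (0.81 ± 0.24, edgeR adjusted p 0.107). Mcm6 was at 39.7 and 36.8 in CO and at 45.2 and 44.8 in DES (-0.07 ± 0.19, edgeR adjusted p 0.853), where the fold change is on the scale of the TMM-normalised fit and not of CPM. The 2 CO sections differed more from each other in Top2a than the DES and CO means did.

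**Figure D5:**
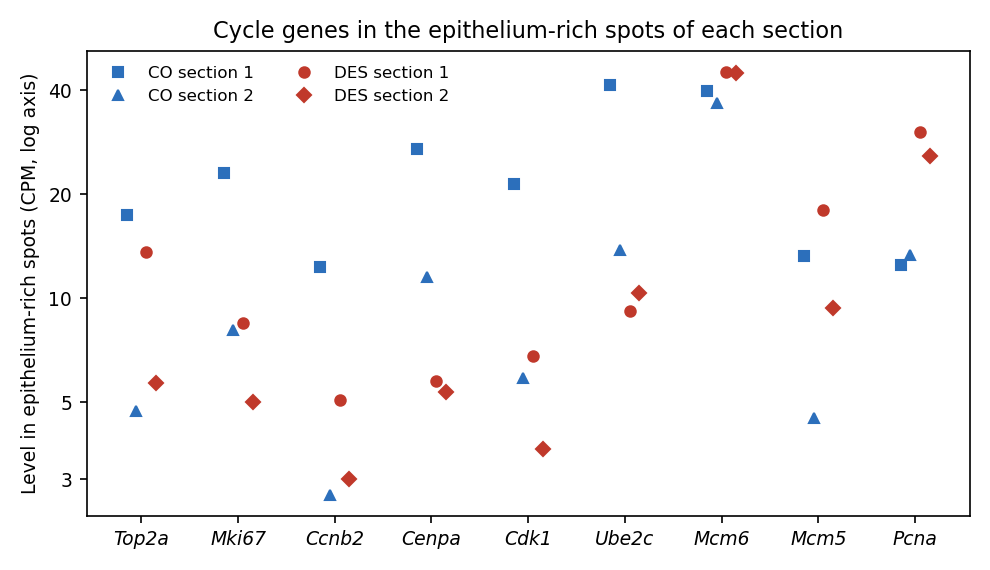
Levels of cycle genes in the epithelium-rich spots of each of the 2 CO and 2 DES sections (CPM, log axis), with 1 point per section. Top2a and Mki67 overlap between the groups, while both DES sections lie above both CO sections for Pcna, at 30.3 and 25.8 against 12.5 and 13.3 CPM.

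In all spots 376 of 14098 genes were higher in DES (2.67%) and 371 lower (2.63%). None of 52 G2/M genes was called, with 3 higher and 17 lower at an unadjusted p under 0.05 and a median of -0.81. Their summed level lay the other way, at 1183 and 804 CPM in CO and 1281 and 1193 in DES. No share of all genes at the unadjusted threshold was counted, so the 3 and 17 cannot be weighed. Of the cycle genes called there, Ccnd2 was at 11.8 and 7.70 CPM in CO and 35.2 and 33.0 in DES (log2 fold change 1.59 ± 0.28, edgeR adjusted p 0.0466), and Chaf1b, of the chromatin assembly factor, at 6.48 and 7.16 against 21.4 and 29.3 (1.69 ± 0.26, adjusted p 0.0381). Cdkn2a and Cdkn2b were also higher and Pola2, of the primase complex, lower. Cell type markers were read here too, beside the 2.67% of all genes called higher and the 2.63% called lower. All 6 muscle markers were called lower, at sums of 14758 and 16169 CPM in CO and 3562 and 4036 in DES, and 2 of 8 stromal markers were. Of 4 pericyte markers 2 were called lower and 1 higher, and 1 of 6 lymphocyte and 1 of 6 mesothelial markers were called higher. None of 5 endothelial markers was called, with a median log2 fold change of -1.04 and both DES sections below both CO sections in CPM for all 5. The share of all genes apart in this way was not counted. The 4 basal markers summed to 4.08 and 216 against 10330 and 6487 CPM (median log2 fold change 5.51, none called). Their part in these values was not tested. The counts depended on each section: without DES section 1, 14 genes were higher and none lower, without DES section 2, 3 and none, without CO section 1, 1311 and 1508, and without CO section 2, 1148 and 1188.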

How the data were processed

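Single-cell counts and Visium counts were used as deposited by the authors: whole-number UMI counts per gene and cell or spot, not normalized. Per the labels and the study's methods, reads were demultiplexed with bcl2fastq 2.20.0.422 and counted with Cell Ranger 3.0.1 (cells) or Space Ranger 1.2.2 (sections) on mm10, swapped barcodes and doublets were removed, and cells were clustered in Seurat. The cluster values come from the authors' deposited cell annotation. Filtering by depth or mitochondrial share was not repeated.

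For each group of cells the UMIs of a gene were added up and divided by the group's total (CPM). Ratios carry exact intervals at 95% confidence that cover counting error only, and a count of 0 was read as at most 3. Log2 ratios of list members used CPM plus 1. Shares of cells have exact Clopper-Pearson intervals after thinning to 3000 UMIs. Cells with fewer were left out. A gene was counted at a fold of 2 and 20 CPM in the higher group, with no p-value, since each condition had 1 library. The sections, 2 a group, were tested with edgeR 4.0.16 (glmQLFit and glmQLFTest, TMM, filterByExpr) in R 4.3.3, on the sums of all spots and of the 25% richest in epithelial markers, at an adjusted p of 0.05. Nothing says that mice of a group came from separate litters, so p-values measure the spread between these sections. The edgeR fit was tested on simulated counts. DESeq2 1.42.0 was an alternative, as were other filters, folds, depths, neighbour levels and left-out sections. CO cluster 4 had 191 cells in the annotation, of which 4 had no counts here and were not used.

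All members of the gene lists could be named, and beyond them the 10 highest and 10 lowest ratios of each comparison at 50 CPM, and in the sections the 5 largest rises and falls that did not overlap. The cluster, lists and rules were chosen with earlier results of these data known, and the motile cilia genes after their values were seen. Promoters come from RefSeq (GRCm38.p6), for 27025 genes. Some genes are not reported here.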

Additional observations from a re-analysis of the deposited data

How the results depend on the processing

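Of 264 alternative values 173 stayed within the limits set for a change, 90 moved past them and 1 reversed. Among values of the main results 71 stayed and 55 moved, and among the others 102 stayed, 35 moved and 1 reversed. The limits were a factor of 1.5 for a count, 0.25 on the log2 scale for a ratio or a list median, and its own interval for a share of cells. The single reversal was the replication fork list against CO cluster 4, at a median log2 ratio of 0.049 with the cluster 6 cells of integrated cluster 7 alone. In that choice of cells 113 genes were higher than in the other DES cells, with list medians of 0.46 (S) and 2.91 (G2/M), and -0.0092 and -0.33 against CO cluster 4. Taking means over cells in place of sums gave 117 higher genes and medians of 0.48 (S) and 3.06 (G2/M) against the other DES cells, and -0.47 (G2/M) against CO cluster 4. A level minimum of 50 CPM gave 25 higher and 10 lower genes against the other DES cells, 136 and 298 against CO cluster 4, and 83 and 24 in the control contrast. A fold of 1.5 gave 113 and 95, 682 and 1237, and 362 and 157. Without the deepest 10% of cells the S list of the control contrast was at 1.87. The median of the other clusters in place of their pooled cells, chosen after seeing the data, gave 107 higher and 6 lower genes and a G2/M median of 2.74 in DES, and 5 lower genes in the control contrast. Leaving out the cells with cilia genes gave 61 higher and 25 lower genes and moved no value past the limits. The share of cells with both markers depended on depth: cluster 6 17.7% at 5000 UMIs, 62.3% unthinned and 45.8% with 2 UMIs of each; other DES cells 0.802%, 4.58% and 2.62%; CO cluster 4 14.7%, 66.8% and 50.8%. At 5000 UMIs 48.6% of DES cluster 4 cells had more S than G2/M UMIs. DESeq2 gave 822 higher and 969 lower genes in the sections and 596 lower in epithelium-rich spots. Leaving out 1 section gave 3 to 1311 higher and 0 to 1508 lower genes, and 11 to 1687 and 0 to 1635 in epithelium-rich spots. With 1 section left in a group, it was assumed to vary like the others. The causes of these moves were not tested. No paired analysis was possible because section numbers were given in order only and each single-cell group is 1 library.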

Other observations

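Outside the cycle genes, the genes with the largest changes in the sections with no overlap between groups were Nccrp1, Cyp4a12b, Olfm4, Six3 and Krt34 among those higher in DES and Uts2, Tmsb15b1, Retnla, Meltf and Tpsab1 among those lower. In the epithelium-rich spots they were Nccrp1, Cyp4a12b, Crh, Cxcl13 and RP23-433F5.1, and Tmsb15b1, Klk1, Rasgrf1, Msc and Meltf. Crh, at 86.9 CPM in cluster 6, was at 23.8 and 117 CPM in the epithelium-rich spots of the DES sections and at 0 in those of both CO sections.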
